A study of Mus musculus with 6 samples.

Results

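Cerebellar granule neurons are among the most abundant neurons of the brain, and they are born from progenitors on the surface of the cerebellum that can also give rise to medulloblastoma, a malignant tumour of the cerebellum. As a progenitor leaves the cell cycle it switches on NeuroD and NFI transcription factors, extends axons, migrates inward and at last assembles glutamate-releasing synapses on Purkinje cells. The genes of that course were followed here in mouse medulloblastomas with and without a mutation in Eed, a core subunit of Polycomb repressive complex 2, the histone methyltransferase that keeps many developmental genes silent. The set holds 35 genes of 52550 in all, chosen by name from what is known of the lineage and matched by the gene symbol in the deposited files. All 35 were present, each under 1 gene identifier, and all were among the 19145 genes with enough counts to test. They were split into 13 early genes (commitment, migration and first neurites), 12 late genes (synaptic vesicles, transmitter loading and synapse building) and 10 genes between.

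Total RNA was sequenced from 3 Eed mutant and 3 wild-type medulloblastomas. The labels name the tissue and the Eed genotype alone: the sources used here do not give the mutant allele, any Cre driver, the tumour model, the strain, the age or the sex. Whether each tumour is from its own animal is not stated, so the p-values speak only of the spread among these 6 samples. The libraries held 26186236 to 26425111 estimated counts each. Eed itself was at 32.6, 36.8 and 30.7 CPM (counts scaled to a common library size) in the mutants and 43.8, 30.1 and 35.6 CPM in wild type, groups that overlap (edgeR log2 fold change -0.13, adjusted p = 0.656). With the allele unknown, this level does not check the labels. Granule lineage markers were detected in every library, from the progenitor factor Atoh1 (75.3 to 172 CPM over the 6 libraries) through Barhl1, Zic1 and Pax6 to the mature receptor subunit Gabra6 (20.8 to 87.8 CPM). In bulk tumour tissue, fewer cells of a type and less RNA per cell cannot be told apart.

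One library stood apart in these genes. Wild-type replicate 2 was the highest of the 6 libraries for 31 of the 35 genes, where the same held for 26.6% of all genes tested. Mutant replicate 1 was the lowest for 24 of the 35, against 20.1% of all genes tested. The median gene of the set deviated from its own mean over the 6 libraries by -0.34, 0.04 and -0.12 on the log2 scale in mutant replicates 1 to 3, and by -0.06, 0.52 and -0.01 in wild-type replicates 1 to 3. The other 2 wild-type tumours therefore lay within the range of the mutants. The names of the deposited files carry a code, of unknown meaning. Wild-type replicate 2 has the same code as mutant replicates 1 and 2. Wild-type replicate 3 and mutant replicate 3 share another, and wild-type replicate 1 shares its code with no other library. Results are given below with and without wild-type replicate 2. It was picked because it was the highest for most of these genes. That leaving it out raises most of their fold changes therefore follows from the choice.

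**Figure D1:**
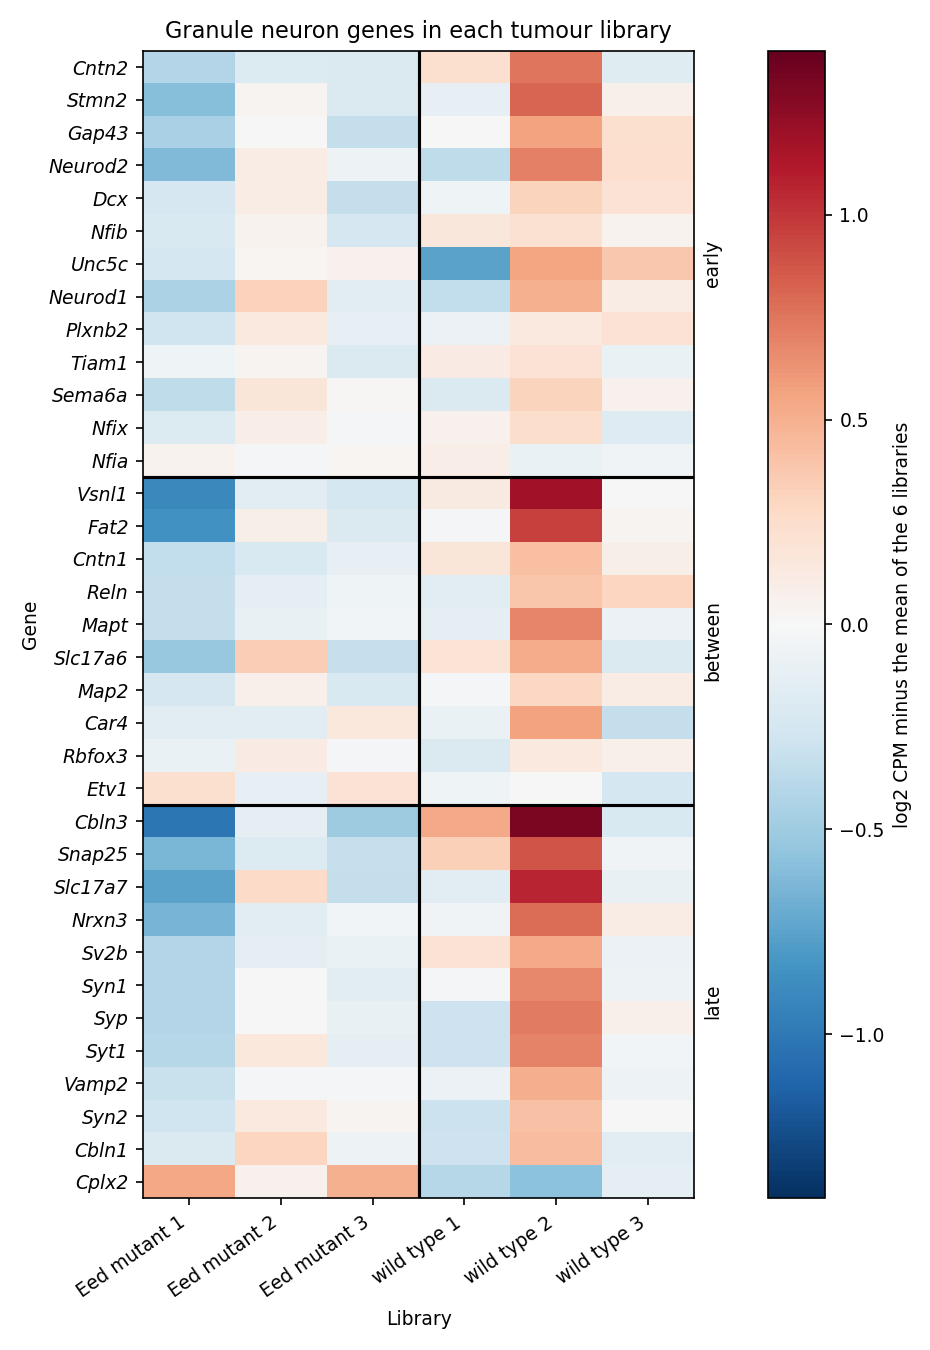
Expression of the 35 granule neuron genes (rows, in their early, between and late groups) in each library (columns), as log2 CPM minus the gene's mean over the 6 libraries. Wild type 2 is the highest library for 31 genes, and for Cplx2, in the bottom row, it is the lowest.

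The genes of granule neuron differentiation were mostly at slightly lower levels in the Eed mutant tumours, and 1 synaptic gene, Cplx2, ran the other way. Of the 35 log2 fold changes, 32 were negative and 3 positive, with a median of -0.30, from -1.18 for Cbln3 to 0.73 for Cplx2. The median over all genes tested was -0.01. Without wild-type replicate 2 the median of the 35 was -0.13 and 24 were negative. edgeR's quasi-likelihood test called 0 of the 35 at an adjusted p of 0.05, and 0.0% of all genes tested in either direction. At an unadjusted p under 0.05 it found 1 gene higher, against 9.29% of all genes tested, and 10 lower, against 8.78%. DESeq2, the second test on the same counts, called 1 gene higher (Cplx2), where 2.96% of all genes it tested were called higher. It called 2 lower (Cntn1 and Snap25), against 2.26% of all genes. Calls in either direction were thus 3 of 35, beside 5.22% of all genes. Groups did not overlap for 7 genes that were lower in the mutants, against 11.9% of all genes tested, and for 1 that was higher, against 13.1%. In either direction these were 8 of 35, where 25.0% of all genes tested had groups apart. Below, fell and rose are short for a DESeq2 call and not for an established change, and the edgeR test above called none of these genes. On counts simulated from these libraries DESeq2 made more false calls than its threshold allows, and more than edgeR did.

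**Figure D2:**
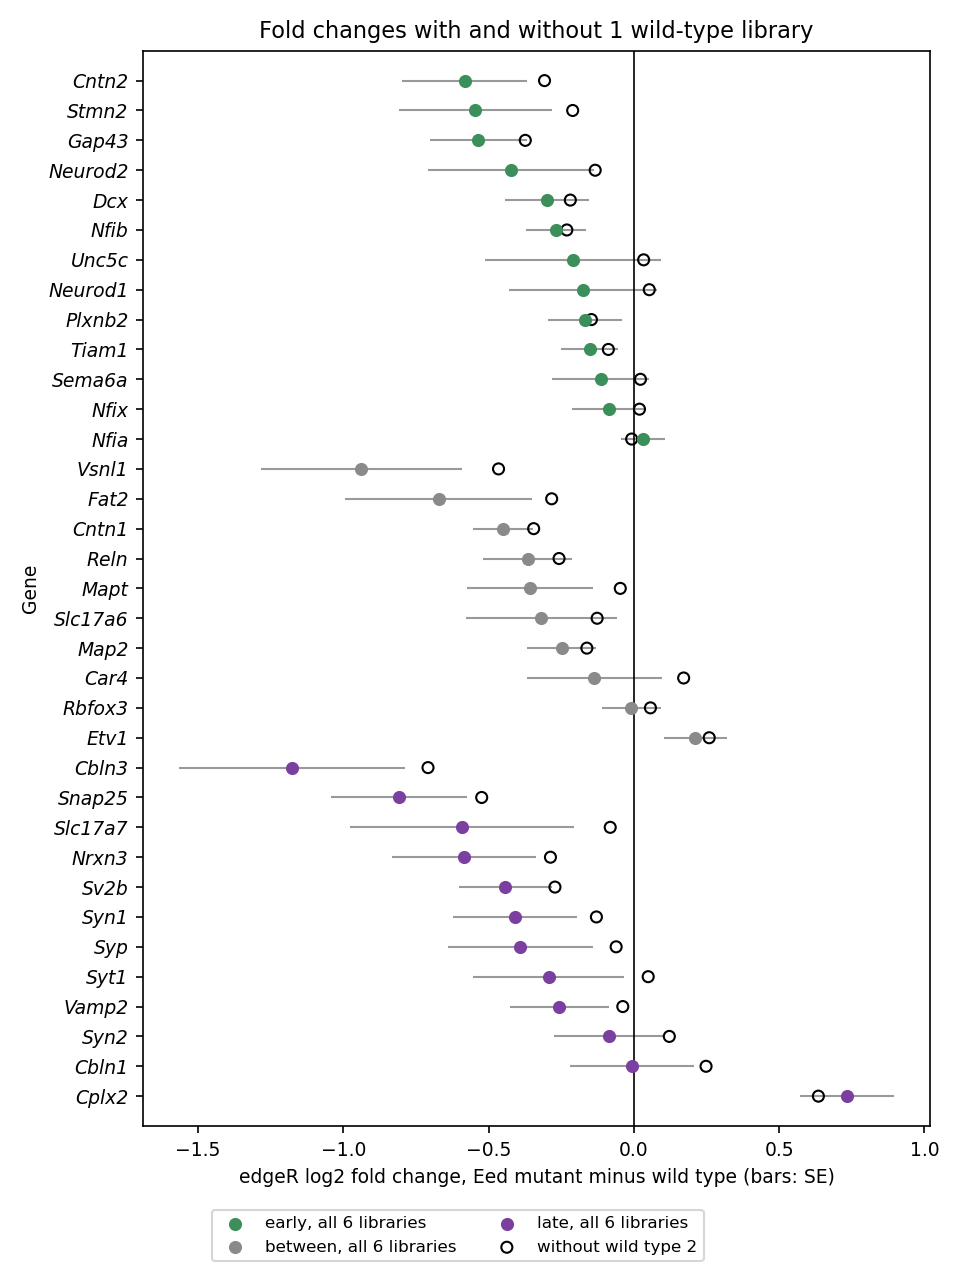
edgeR log2 fold changes (Eed mutant minus wild type) of the 35 genes with all 6 libraries (filled, bars are SE) and without wild type 2 (open). The open points lie nearer to 0 than the filled ones for most genes, and the late genes Slc17a7, Syt1 and Syp move most of the way to it, while Cplx2 stays at 0.63.

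The levels of the set spanned a wide range, compared here per length as TPM, a count divided by transcript length and scaled to a common total. Neurod1 was the highest in both groups, at 446 ± 124 TPM in the mutants and 515 ± 147 TPM in wild type (SD, n = 3 each). Nfib came next in both, at 333 ± 40.4 TPM in the mutants and 414 ± 24.3 TPM in wild type, and then Map2, at 310 ± 38.6 TPM in the mutants and 385 ± 39.7 TPM in wild type. Nrxn3 was the lowest in both, at 8.12 ± 1.80 TPM in the mutants and 12.3 ± 4.36 TPM in wild type. Low and high genes were found in each stage group: the late gene Slc17a7, at 16.2 ± 5.91 TPM in the mutants and 25.1 ± 12.7 TPM in wild type, stood near the early gene Neurod2, at 11.8 ± 2.87 TPM in the mutants and 16.1 ± 5.51 TPM in wild type. Cplx2 ranked 7 of the 35 in the mutants and 16 in wild type, and Snap25 ranked 10 in the mutants and 6 in wild type. Most neighbours in this order differ by less than the larger of their SDs.

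None of the transcription factors of the course was called by either test. Neurod1, the basic helix-loop-helix factor that drives granule cell differentiation, was at 496, 842 and 609 CPM in mutant replicates 1 to 3 and 528, 949 and 723 CPM in wild-type replicates 1 to 3. The groups overlap almost fully, and replicate 2 is the highest and replicate 1 the lowest in both (log2 fold change -0.18, SE 0.255, adjusted p = 0.745 in edgeR). Its sign turned without wild-type replicate 2 (0.05). Its relative Neurod2 was at 17.9, 29.6 and 26.1 CPM in the mutants and 21.5, 44.8 and 32.4 CPM in wild type, also overlapping (log2 fold change -0.42, SE 0.286). Nfia, Nfib and Nfix encode nuclear factor I proteins, which in the mouse cerebellum promote axon growth, migration and dendrite formation of granule neurons. Nfib had 1425, 1703 and 1401 CPM in the mutants and 1838, 1908 and 1705 CPM in wild type. These groups do not overlap, but the highest mutant and the lowest wild-type tumour nearly touch (log2 fold change -0.27, SE 0.103, adjusted p = 0.246 in edgeR and 0.156 in DESeq2). Nfia was the steadiest gene of the set, with 1.14-fold between its highest and lowest library, and Nfix also overlapped (log2 fold change -0.09). Etv1, an ETS factor that responds to neuronal activity in maturing granule cells, was at 127, 101 and 126 CPM in the mutants and 105, 108 and 91.7 CPM in wild type. It is 1 of the 3 positive genes, and its groups overlap (log2 fold change 0.21, SE 0.109, adjusted p = 0.348 in edgeR).

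Among the 11 genes of migration and neurite growth all 11 log2 fold changes were negative, with a median of -0.37, and -0.22 without wild-type replicate 2. Cntn1 (chromosome 15, 92051165 to 92341967, plus strand, GRCm38), a contactin adhesion molecule of axons, had 136, 148 and 159 CPM in the mutants and 193, 230 and 182 CPM in wild type. Every mutant tumour lies below every wild-type one, and wild-type replicate 2 is the highest but not far from the other 2. Cntn1 fell in DESeq2 (log2 fold change -0.45, SE 0.126, adjusted p = 0.01345, and 0.149 in edgeR). DESeq2 still called it without wild-type replicate 2 (-0.34, adjusted p = 0.0301), but not without mutant replicate 1 (adjusted p = 0.256) or mutant replicate 2 (0.0701). The related Cntn2, or TAG-1, marks granule cells just after their last division. It was at 492, 573 and 571 CPM in the mutants and 765, 1101 and 584 CPM in wild type. The groups do not overlap, but wild-type replicate 3 is level with the upper 2 mutants (log2 fold change -0.58, SE 0.216, adjusted p = 0.235 in edgeR and 0.0808 in DESeq2; -0.31 without wild-type replicate 2). Gap43, a growth cone protein, was at 104, 141 and 112 CPM in the mutants and 143, 209 and 166 CPM in wild type. Its groups meet at mutant replicate 2 and wild-type replicate 1 (log2 fold change -0.54, SE 0.166, adjusted p = 0.191 in edgeR and 0.0502 in DESeq2).

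The other migration and neurite genes overlapped between the groups. Dcx, the microtubule protein of migrating neurons, had 640, 813 and 600 CPM in the mutants and 725, 933 and 867 CPM in wild type (log2 fold change -0.30, SE 0.143, adjusted p = 0.318 in edgeR). Stmn2, a tubulin-binding protein of growing axons, had a log2 fold change of -0.55 with all libraries and -0.21 when wild-type replicate 2 was left out. Fat2, a giant cadherin of granule cells and their parallel fibres, went to -0.28 without that library, against -0.67 with it. Reln, the migration signal that granule cells secrete, was at 469, 539 and 566 CPM in the mutants and 528, 774 and 726 CPM in wild type, where replicate 1 lies among the mutants (log2 fold change -0.37, SE 0.152, adjusted p = 0.27 in edgeR). Plxnb2 and Sema6a, a semaphorin receptor and a semaphorin that guide granule cells, Unc5c, a netrin receptor, and Tiam1, a Rac activator, had log2 fold changes between -0.21 and -0.11. The signs of Sema6a and Unc5c turned without wild-type replicate 2 (0.02 and 0.03).

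None of the 5 genes grouped here as neuronal identity and cytoskeleton was called by either test. Rbfox3, which encodes the neuronal nuclear antigen NeuN, was at 210, 242.5 and 221 CPM in the mutants and 196, 246 and 236 CPM in wild type. Its groups overlap fully (log2 fold change -0.01, SE 0.102). Map2, a dendritic microtubule protein, had 735, 911 and 748 CPM in the mutants and 857, 1058 and 928 CPM in wild type (log2 fold change -0.25, SE 0.119, adjusted p = 0.318 in edgeR). Mapt, which encodes the axonal protein tau, had a log2 fold change of -0.36, and -0.05 without wild-type replicate 2. Vsnl1, a neuronal calcium sensor, was at 12.5, 21.01 and 19.7 CPM in the mutants and 25.4, 53.0 and 23.5 CPM in wild type. The groups do not overlap, yet wild-type replicates 1 and 3 sit just above the mutants and replicate 2 far above them (log2 fold change -0.94, SE 0.346, adjusted p = 0.234 in edgeR and 0.05535 in DESeq2). Without wild-type replicate 2 the value was -0.47. Car4, a membrane carbonic anhydrase, had a log2 fold change of -0.14 and changed sign without that library (0.17).

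The vesicular glutamate transporters load glutamate into synaptic vesicles, and maturing granule neurons exchange Slc17a6 for Slc17a7. Slc17a7 was at 20.96, 42.4 and 27.9 CPM in the mutants and 31.75, 73.3 and 32.7 CPM in wild type. Mutant replicate 2 exceeds 2 of the 3 wild-type tumours (log2 fold change -0.59, SE 0.385, adjusted p = 0.444 in edgeR; -0.08 without wild-type replicate 2). Slc17a6 was at 72.4, 133 and 83.7 CPM in the mutants and 119, 150 and 91.0 CPM in wild type (log2 fold change -0.32, SE 0.259, adjusted p = 0.539). Per length, the TPM ratio of Slc17a7 to Slc17a6 was 0.337, 0.361 and 0.379 in the mutants and 0.300, 0.557 and 0.420 in wild type. Slc17a6 was the more abundant in all 6 tumours, and the groups overlap.

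Synaptic vesicle release rests on SNARE proteins, of which Snap25 sits on the cell membrane and Vamp2 on the vesicle, on the calcium sensor Syt1, and on complexins, which clamp and assist the SNARE complex. Snap25 (chromosome 2, 136713453 to 136782428, plus strand, GRCm38) was at 135, 186 and 169 CPM in the mutants and 265.5, 388 and 204 CPM in wild type. The groups do not overlap, with wild-type replicate 3 nearest to the mutants. Snap25 fell in DESeq2 (log2 fold change -0.81, SE 0.226, adjusted p = 0.0139, and 0.173 in edgeR). DESeq2 no longer called it without wild-type replicate 2 (-0.52, adjusted p = 0.06), mutant replicate 1 (adjusted p = 0.263) or mutant replicate 3 (0.101).

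Which Snap25 transcript is used is a measure apart from the level of the gene. Snap25 carries a pair of mutually exclusive exons, 5a and 5b: developing neurons use the upstream exon 5a (SNAP-25a), and mature neurons exchange it for the downstream exon 5b (SNAP-25b). The sequences of both, from GENCODE M21 transcripts on GRCm38, show what tells the transcripts apart, with the 31 of 118 bases that differ in capitals.
Snap25-202, exon 5a, chr2:136769743-136769860, plus strand: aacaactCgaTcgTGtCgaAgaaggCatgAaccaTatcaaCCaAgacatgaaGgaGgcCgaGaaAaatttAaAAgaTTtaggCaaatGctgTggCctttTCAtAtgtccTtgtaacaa
Snap25-201, exon 5b, chr2:136770057-136770174, plus strand: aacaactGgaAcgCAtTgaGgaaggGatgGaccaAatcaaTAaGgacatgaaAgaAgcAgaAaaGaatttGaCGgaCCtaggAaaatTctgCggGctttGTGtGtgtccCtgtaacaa
The exons are 73.7% identical. Snap25-202 took 8.17%, 7.625% and 8.45% of Snap25 counts in the mutants and 8.26%, 6.76% and 9.48% in wild type (exact two-sided permutation p = 0.9, where 3 against 3 allows no less than 0.1). Per length, its share of Snap25 TPM was 16.0%, 14.8% and 16.4% in the mutants and 16.1%, 13.25% and 18.2% in wild type, also overlapping. On both scales the Snap25-202 share was lowest in wild-type replicate 2, and the groups overlap. Snap25-201 is 2116 bases long and Snap25-202 is 1014, and reads from the part that only Snap25-201 has also enter the split, so the shares do not measure the exons alone.

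Cplx2, complexin 2, was the 1 gene of the set that was called higher. It had 728, 522 and 711 CPM in the mutants and 381, 338 and 461 CPM in wild type. All mutant tumours lie above all wild-type ones, and here wild-type replicate 2 is the lowest library and mutant replicate 1 the highest. Cplx2 rose in DESeq2 (log2 fold change 0.73, SE 0.168, adjusted p = 0.0012, and 0.149 in edgeR). DESeq2 still called it without wild-type replicate 2 (0.64, adjusted p = 0.00825), but not without mutant replicate 1 (adjusted p = 0.0722) or mutant replicate 3 (0.0575). In the edgeR fit with a term for the file code, the log2 fold change was 0.77 (edgeR adjusted p = 0.233). Wild-type replicate 1, alone in its code, adds nothing to the difference in that fit. Its paralogue Cplx1, complexin 1, is not in the set and was looked up after the values of Cplx2 were seen. It was at 52.7, 74.5 and 62.3 CPM in the mutants and 82.4, 137 and 86.5 CPM in wild type. Cplx1 fell in DESeq2 (log2 fold change -0.69, adjusted p = 0.0356, and 0.193 in edgeR). DESeq2 did not call it without mutant replicate 1 (adjusted p = 0.419), mutant replicate 3 (0.213) or wild-type replicate 2 (0.144, log2 fold change -0.42 in edgeR). Per length, the TPM ratio of Cplx2 to Cplx1 was 5.91, 2.98 and 4.895 in the mutants and 1.98, 1.06 and 2.265 in wild type. These ratios do not overlap, which follows from the genes themselves: Cplx2 was higher in every mutant tumour and Cplx1 lower. The ratio is thus no further result. The single annotated Cplx2 transcript leaves no split of counts between isoforms (chromosome 13, 54371349 to 54383917, plus strand, GRCm38).

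**Figure D3:**
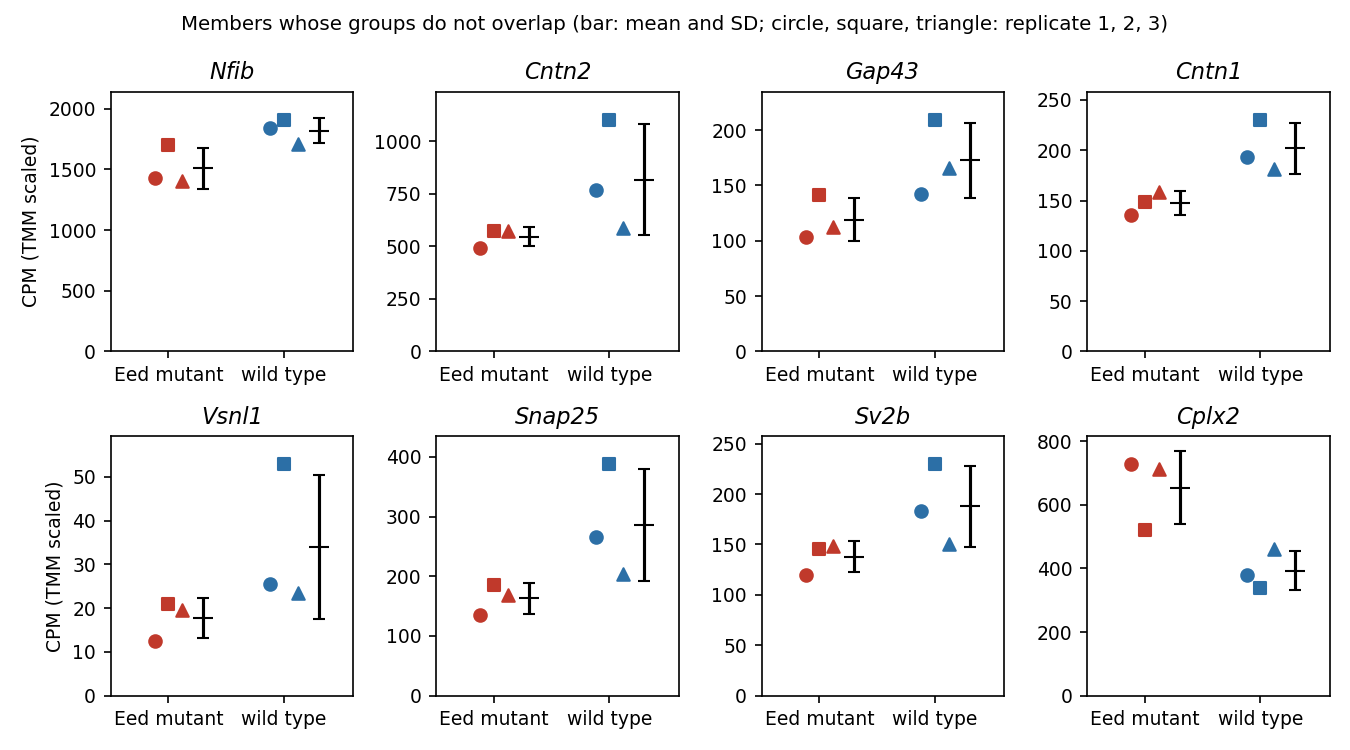
CPM of the 8 genes whose mutant (red) and wild-type (blue) libraries do not overlap, with the mean and SD of 3 libraries beside them. In 7 panels the wild-type square, replicate 2, is the highest point, and in Cplx2 it is the lowest; that the groups stand apart follows from how the 8 were picked.

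The other vesicle genes were all highest in wild-type replicate 2. Sv2b, a vesicle glycoprotein, was at 120, 145 and 149 CPM in the mutants and 183, 230 and 150 CPM in wild type. There wild-type replicate 1 also lies above the mutants and replicate 3 is level with them (log2 fold change -0.44, SE 0.16, adjusted p = 0.229 in edgeR and 0.113 in DESeq2). Without wild-type replicate 2 the log2 fold change of Sv2b was -0.27. Syn1, a synapsin that tethers vesicles, was at 41.8, 55.8 and 49.6 CPM in the mutants and 54.4, 88.3 and 53.0 CPM in wild type, overlapping (log2 fold change -0.41, SE 0.213, and -0.13 without wild-type replicate 2). Syp, the vesicle protein synaptophysin, went to -0.06 without that library, against -0.39 with it, and Vamp2 to -0.04, against -0.26. Syn2 and Syt1 changed sign (0.12 without it against -0.09 with it, and 0.05 against -0.29).

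Synapse organisers spanned the whole range of the negative genes. Cbln1 and Cbln3 encode cerebellins, which granule cells secrete as mixed complexes onto Purkinje cell synapses, where Cbln1 binds neurexins. Cbln3 was at 23.8, 43.8 and 33.8 CPM in the mutants and 69.3, 119 and 41.2 CPM in wild type. Wild-type replicate 3 lies below mutant replicate 2, so the groups overlap, and the 5.01-fold span between libraries is the widest of the set (log2 fold change -1.18, SE 0.389, adjusted p = 0.203 in edgeR and 0.156 in DESeq2). Cbln1 was at 122, 173.5 and 134 CPM in the mutants and 115, 190 and 126 CPM in wild type, with full overlap (log2 fold change -0.01, SE 0.212; 0.25 without wild-type replicate 2). Nrxn3, a presynaptic neurexin, had a log2 fold change of -0.58, and -0.29 without that library.

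Map2 makes a long protein typical of mature dendrites, and also short ones, which are not assigned to a stage here. Map2-204, with 5484 coding bases, took 8.44%, 9.98% and 7.36% of Map2 counts in the mutants and 9.82%, 12.6% and 9.46% in wild type, overlapping (exact two-sided permutation p = 0.3). The short Map2-201, with 1401 coding bases, held 62.4% to 67.3% in all 6 libraries. Map2-207, with 1494 coding bases, took 21.5%, 14.03% and 18.6% in the mutants and 12.2%, 7.42% and 13.96% in wild type. Map2-202, with 1401 coding bases as in Map2-201, took 0.43%, 0.83% and 4.94% in the mutants and 9.54%, 6.34% and 7.09% in wild type. In Nrxn3, Nrxn3-208 took 4.03%, 3.885% and 6.84% in the mutants and 11.55%, 9.90% and 7.37% in wild type. Nrxn3-208 is annotated as a nonsense-mediated decay transcript, not as a protein-coding one. Map2-207, Map2-202 and Nrxn3-208 are the 3 of the 12 compared whose groups do not overlap, each with an exact permutation p of 0.1, the smallest possible, and 0.4 adjusted over the 12. No such share over all transcripts was computed, and among all genes tested 25.0% had groups apart. Reads shared by overlapping transcripts were divided by the estimation step. Mapt-204 held 95.6% to 96.7% of Mapt counts and 67.6% to 78.05% of Mapt TPM, and Dcx-201 held 97.6% to 98.7% of Dcx counts and 90.8% to 95.1% of Dcx TPM.

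Early and late genes were then set side by side. The median log2 fold change was -0.21 for the 13 early genes, -0.34 for the 10 between and -0.40 for the 12 late ones. Negative values were found for 12 of the early, 9 of the between and 11 of the late genes. DESeq2 called 0 early genes, 1 between gene lower, and among late genes 1 higher and 1 lower, beside 2.96% higher and 2.26% lower of all genes. At an unadjusted edgeR p under 0.05, 3 early, 3 between and 4 late genes were lower and 1 late gene was higher, beside 8.78% lower and 9.29% higher of all genes. Without wild-type replicate 2 the medians were -0.13, -0.14 and -0.07, and the order of early and late turned. The early median was -0.37 without wild-type replicate 1 and -0.36 without mutant replicate 2. Without mutant replicate 1 the early and late medians were -0.16 and -0.29. The late minus early difference was -0.19 with all libraries and 0.06 without wild-type replicate 2. Without any other single library it stayed between -0.27 and -0.12.

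Library by library the same was seen. The late genes' median deviation was -0.41, 0.01 and -0.10 in mutant replicates 1 to 3, and -0.11, 0.68 and -0.07 in wild-type replicates 1 to 3. The early genes' median deviation was -0.28, 0.04 and -0.14 in the mutants and -0.06, 0.31 and 0.07 in wild type. Late exceeded early by 0.37 in wild-type replicate 2, and the other 5 libraries lay between -0.14 and 0.04. Between libraries that share a file code, the mutant minus wild-type medians of early and late genes were -0.41 and -0.85 for the code of wild-type replicate 2, and -0.27 and -0.09 for the code of wild-type replicate 3. The late median was thus the more negative under the first code and the less negative under the second, where each group has 1 library. Under the first code wild-type replicate 2 is the only wild-type library. Its values there restate the high levels of that library and are no separate view of early against late.

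**Figure D4:**
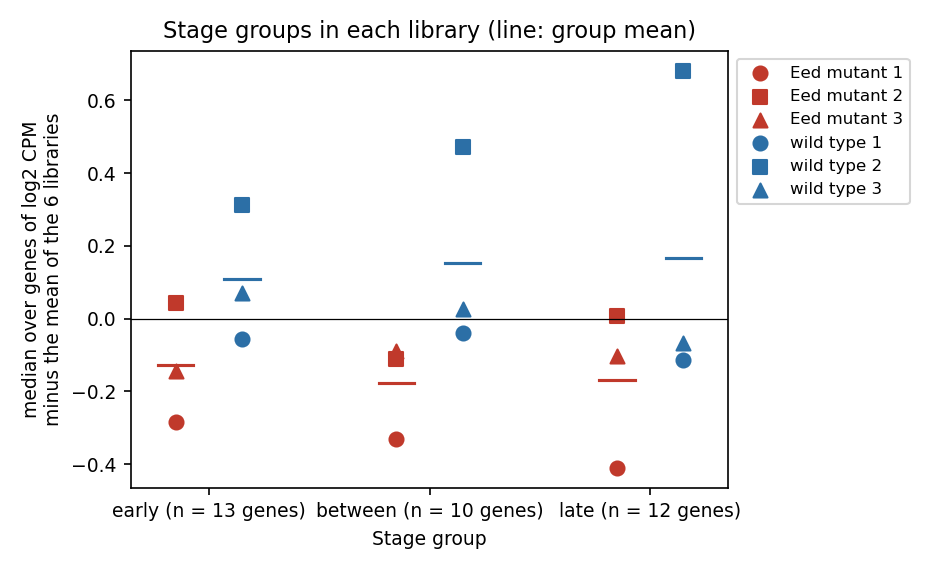
Median over the genes of each stage group of log2 CPM minus the gene's mean over the 6 libraries, 1 point per library, with the group mean as a line. Wild type 2 (blue squares) climbs from 0.31 in the early to 0.68 in the late genes, and the other wild-type points lie within or close to the mutant range.

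Lists of vesicle, neurite and mature granule neuron genes outside the set also had negative medians. They were read from the same 6 libraries and chosen with earlier results known, and the vesicle genes are not particular to granule neurons. Of 28 synaptic vesicle genes 27 had negative log2 fold changes (median -0.47, and -0.22 without wild-type replicate 2), and DESeq2 called 5 lower and 0 higher, beside 2.26% lower and 2.96% higher of all genes. Wild-type replicate 2 was the highest library for 26 of the 28. Syt2, a fast calcium sensor, was at 18.8, 20.5 and 21.1 CPM in the mutants and 41.6, 58.4 and 29.7 CPM in wild type. It fell in DESeq2 with all libraries (log2 fold change -1.10, adjusted p = 0.000194, and 0.142 in edgeR) and in each of the 6 fits that leave 1 library out. Napb and Rims1, which serve SNARE recycling and the release site, also fell in DESeq2 (-0.60 and -0.84, adjusted p = 0.0124 and 0.01345). Neither was called without mutant replicate 1 (DESeq2 adjusted p = 0.247 for Napb and 0.262 for Rims1) or mutant replicate 3 (0.0907 and 0.132), nor was Rims1 without wild-type replicate 2 (0.0582). Vamp1, at -0.38, did not pass (adjusted p = 0.07175).

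Of 28 neurite growth genes 24 were negative (median -0.29, and -0.16 without wild-type replicate 2). DESeq2 called 2 lower and 1 higher, beside 2.26% lower and 2.96% higher of all genes. Nfasc, an adhesion molecule of axon initial segments, fell (-0.77, DESeq2 adjusted p = 0.0117), and the guidance receptor Robo1 rose (0.67, DESeq2 adjusted p = 0.0198). Both calls were lost without mutant replicate 1 (DESeq2 adjusted p = 0.237 for Nfasc and 0.291 for Robo1), that of Robo1 without mutant replicate 3 (0.2), and that of Nfasc without wild-type replicate 2 (0.0648). Dpysl2 and Kif5c did not pass (-0.27 and -0.36). Of 16 mature granule neuron genes 13 were negative (median -0.61, and -0.24 without wild-type replicate 2). Here DESeq2 called 3 lower and 0 higher, beside 2.26% lower and 2.96% higher of all genes. Gabra6, the GABA receptor subunit that marks mature granule cells, was at 20.8, 36.5 and 28.7 CPM in the mutants and 43.2, 87.8 and 41.7 CPM in wild type. It fell in DESeq2 (-1.005, adjusted p = 0.0245, and 0.202 in edgeR) and so did the NMDA receptor subunit Grin2c (-0.97, adjusted p = 0.031). Gabrd, at -0.89, did not pass (adjusted p = 0.0503). DESeq2 called Gabra6 in 3 and Grin2c in 2 of the 6 fits that leave 1 library out. Both calls were lost without mutant replicate 1 (adjusted p = 0.358 for Gabra6 and 0.395 for Grin2c), mutant replicate 3 (0.161 and 0.138) or wild-type replicate 2 (0.175 and 0.148), and that of Grin2c without mutant replicate 2 (0.0618).

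Progenitor genes showed no common direction. Of 18 listed, 8 were positive and 10 negative (median -0.05). DESeq2 called 3 higher and 1 lower, beside 2.96% higher and 2.26% lower of all genes. Hhip, a Hedgehog target that binds the ligand, rose (1.11, DESeq2 adjusted p = 0.00157), and Barhl2 fell (-0.98, DESeq2 adjusted p = 0.00559). Hhip was not called without mutant replicate 1 (DESeq2 adjusted p = 0.0972) or wild-type replicate 1 (0.101), nor Barhl2 without mutant replicate 1 (0.158), mutant replicate 3 (0.112) or wild-type replicate 2 (0.0593). Atoh1 was at 172, 172 and 137 CPM in the mutants and 116, 75.3 and 127 CPM in wild type, without overlap, and did not pass (0.59, adjusted p = 0.052 in DESeq2 and 0.202 in edgeR). Its lowest library was wild-type replicate 2.

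Marker lists of oligodendrocytes and of Purkinje cells and interneurons were also highest in wild-type replicate 2. The summed level of 10 oligodendrocyte markers was 361, 416.5 and 442 CPM in mutant replicates 1 to 3, and 562.5, 1569 and 911 CPM in wild-type replicates 1 to 3, highest in wild-type replicate 2. All 10 had negative log2 fold changes (median -1.38, and -0.89 without wild-type replicate 2). DESeq2 called 9 lower, beside 2.26% of all genes, with the myelin genes Cnp (-1.30) and Mog (-1.47) among the 9. The 14 Purkinje cell and interneuron markers summed to 843.5, 652 and 891 CPM in the mutants and 943, 1385 and 1100 CPM in wild type. Of these, 13 were negative (median -0.59, and -0.25 without wild-type replicate 2), 13 were highest in wild-type replicate 2, and DESeq2 called 3 lower (Gad1, Itpr1 and Calb1), beside 2.26% of all genes. Of the 6 fits that leave 1 library out, DESeq2 called Itpr1 in 6, Gad1 in 3 and Calb1 in 1. Gad1 was lost without any 1 mutant replicate (adjusted p from 0.0506 to 0.0807), and Calb1 was kept only without wild-type replicate 1 (0.000529). No marker of either list was at 0 in all libraries. Purkinje cells and interneurons also use most of the vesicle genes described here, and the part of these cells in the results was not tested.

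**Figure D5:**
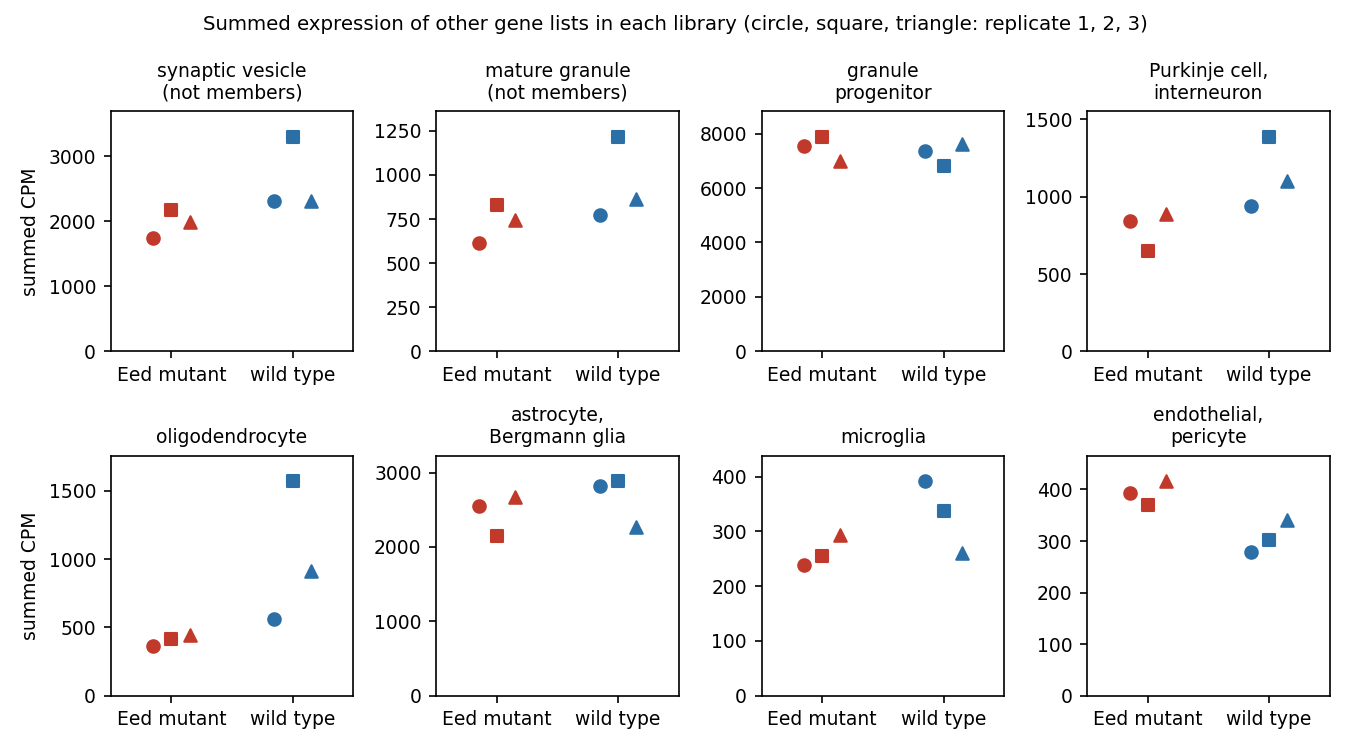
Summed CPM of 8 gene lists outside the set in each mutant (red) and wild-type (blue) library. Wild-type replicate 2 (blue square) is the highest library for the vesicle, mature granule, Purkinje cell, astrocyte and oligodendrocyte lists, the oligodendrocyte list at 1569 CPM, and the lowest for the granule progenitor list, at 6820 CPM.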

How the data were processed

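The deposited files hold estimated counts and TPM per transcript, 1 file per tumour, per the file headers. Per the submitters' processing notes, kallisto 0.43.1 and the builds GRCm38 and mm10 were used. The sources used here give no strand, read length or annotation release. Values of 131100 transcripts were summed to 52550 genes by gene identifier, and the summed estimated counts were rounded. GENCODE M21 gave coordinates and exons, with 52403 genes matched by identifier. The groups were compared with edgeR 4.0.16 in R 4.3.3 (TMM, default filter, quasi-likelihood F-test, Benjamini-Hochberg adjustment over 19145 genes at 0.05) and, as the second test, DESeq2 1.42.0. A positive log2 fold change is higher in the mutants, and fold changes are from edgeR unless DESeq2 is named. Both tests were tried on a single draw of simulated counts with known changes, larger than most of those seen in the set. Both mostly gave the right sign, and both made more false calls than their threshold allows, DESeq2 more than edgeR. How often changes as small as those of the set are missed was not tested, so a gene not called may still differ. limma 3.58.1 served the voom and TPM alternatives. A replicate is 1 labelled sample. The members, stage groups, lists and tests were chosen with earlier results of these data known. Values in every library are given for members called by DESeq2, for those with non-overlapping groups and for 14 fixed members. Of each other list up to 4 genes with the smallest edgeR p and a mean of at least 1 CPM are named; some genes this rule picks are not reported here. A few more members and markers are shown as examples.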

Additional observations from a re-analysis of the deposited data

How the results depend on the processing

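The sign of the early, between and late medians held under every alternative run. Without wild-type replicate 2 the between and late medians came nearest to 0; with a library left out, the early median ran from -0.37 (wild-type replicate 1) to -0.13 (wild-type replicate 2). edgeR called 0 members with RLE size factors, library size only, the length offset, either other filter, the file code and each library left out, and limma called 0. DESeq2 called 1 member higher and 2 lower (524 and 399 of all genes), limma-voom 1 and 0 of all genes, and edgeR without a filter 3 and 0. Leaving out 1 library gave edgeR 0 to 6 genes higher and 0 to 3 lower. DESeq2 then called 139 to 670 genes higher and 71 to 587 lower, and 0 to 1 members higher and 0 to 6 lower (none when mutant replicate 1 was left out, 0 and 1 for mutant replicate 3, 1 and 6 for wild-type replicates 1 or 3). The replicate block gave 1 member higher (Cplx2, adjusted p = 0.0403), 1 lower (Gap43, 0.0292) and 189 and 84 of all genes, but same-numbered tumours share only a number (correlations of deviations 0.26, 0.14 and -0.15). The early median was -0.39 with the file code as a term, a fit in which wild-type replicate 1 adds nothing to the difference. Within the code of wild-type replicate 2, the only wild-type library there, the early, between and late medians were -0.41, -0.66 and -0.85. That split was chosen after seeing the data, as were the DESeq2 fits without a library. The late minus early difference ran from -0.27 to 0.0619 with a library left out. It also moved with the grouping, from -0.19 to -0.15 with Nfia, Nfib and Nfix left out of the early genes. With only the vesicle release genes as late genes it was -0.13. Small fold changes reversed, and the cause was not tested: Rbfox3 (0.00864) and Cbln1 (0.00928) with the length offset, Cbln1 with voom (0.0128) and the block (0.0125), and Nfia on log2(TPM + 1) (-0.0331). With a library left out the ranges were -0.41 to 0.0528 (Neurod1), -0.10 to 0.0568 (Rbfox3), -0.17 to 0.25 (Cbln1), -0.24 to 0.12 (Syn2), -0.48 to 0.0491 (Syt1), -0.00787 to 0.0859 (Nfia), -0.19 to 0.0191 (Nfix), -0.31 to 0.17 (Car4), -0.23 to 0.0224 (Sema6a) and -0.51 to 0.0333 (Unc5c). The share of Nrxn3-205 differed by 0.23 percentage points in counts and -0.90 in TPM.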

Other observations

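Lists of glia and vessel cells gave further values. Of 10 endothelial and pericyte markers 9 had positive log2 fold changes (median 0.33, and 0.36 without wild-type replicate 2), with 392.9, 370.5 and 415.5 CPM in sum in mutant replicates 1 to 3 and 278, 302 and 340 CPM in wild-type replicates 1 to 3. DESeq2 called 4 of them higher, beside 2.96% of all genes: the VEGF receptor Kdr, Acta2, Rgs5 and Pecam1 (0.56, 1.22, 0.45 and 0.43 in edgeR, with adjusted p = 0.0034, 0.00163, 0.00983 and 0.026 in DESeq2). Of the 6 fits that leave 1 library out, DESeq2 called Acta2 in 6, Kdr in 5 (not without mutant replicate 3), Rgs5 in 4 (not without mutant replicate 1 or 3) and Pecam1 in 1 (without wild-type replicate 3). All 10 microglia markers were negative (median -0.30), and 1, Csf1r, fell in DESeq2 (-0.54, adjusted p = 0.026), beside 2.26% lower of all genes. Csf1r was called in 2 of those 6 fits (without mutant replicate 3 or wild-type replicate 3). Astrocyte and Bergmann glia markers were split 5 and 5 (median 0.00), and the gap junction gene Gjb6 fell in DESeq2 (-0.94, adjusted p = 0.000418).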
